A study of Drosophila melanogaster with 8 samples.

Results

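The 10 genes described here encode the kinase P-TEFb, the RNA and proteins that hold or recruit it, and the other cyclin-dependent kinases that act on the transcription machinery. They were chosen by name from 18277 annotated genes: *Cdk9*, *CycT*, *snRNA:7SK*, *Larp7*, *bin3*, *fs(1)h*, *Cdk7*, *Cdk8*, *Cdk12* and *CycK*. A CDK9 peak counted for a gene if it overlapped the gene body, or a window of 1500 bp on either side of any annotated start, by 1 bp or more. By this rule 32 of 10909 peaks lay at these genes, and they merged into 13 of 5531 regions.

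The data are ChIP-seq peak lists for the endogenous CDK9 protein in Kc167 cells, a female line of *Drosophila melanogaster* derived from embryonic hemocytes. The siAGO2 group (2 libraries) was transfected with an RNA directed against Argonaute2 and the mock group (2 libraries) with no RNA, and all cells were taken 3 days later. Each library had its own input, of which there were 4 in all. The comparison asks whether CDK9 occupancy at these genes differs when AGO2 is depleted. It rests on 1 cell line, and nothing in the labels says that the replicates came from separate cultures, so the p-values measure the spread between these libraries. The libraries do not measure RNA, and peak lists show neither the knockdown nor the identity of the cells.

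P-TEFb consists of the kinase Cdk9 and its partner Cyclin T. It phosphorylates the C-terminal domain of Pol II as well as NELF and DSIF, which releases the paused polymerase into elongation. A large share of P-TEFb in animal cells is held inactive by the 7SK RNA, with a HEXIM protein as the inhibitor, Larp7 as a stabilizer of the RNA and Bin3 (MePCE in mammals) as the enzyme that caps it. The product of *fs(1)h* is a bromodomain protein that binds acetylated histones.

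Depth differed between the libraries. The reads that the genome background gives on average over a position were 0.814 and 0.864 in siAGO2 replicates 1 and 2, against 2.29 and 1.21 in mock replicates 1 and 2. The lists held 1707 and 2295 peaks in siAGO2 cells and 3103 and 3804 in mock cells. The fewest reads at the summit of any peak were 5 and 6 in the siAGO2 lists and 10 and 7 in the mock lists, and the lowest fold enrichment was 2.44 and 2.40, against 1.57 and 2.43. A gene without a peak therefore had no enrichment detectable at that depth, which does not show that CDK9 was absent.

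CDK9 peaks were found at 7 of the 10 genes in 1 library or more, a call that 30.1% of all genes received. *fs(1)h*, *bin3* and *snRNA:7SK* had a peak in all 4 libraries, a call that 7.53% of all genes received. *CycT* had peaks in 3 libraries, *Cdk7* in 2, and *Cdk9* and *Larp7* in 1 each. *Cdk8*, *Cdk12* and *CycK* had no peak in any list.

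Peaks were present at 4 and 6 of the 10 genes in siAGO2 replicates 1 and 2, where 10.8% and 14.9% of all genes had one. They were present at 4 and 5 of the 10 in mock replicates 1 and 2, where 18.6% and 23.0% of all genes had one. The mean was 5.0 ± 1.4 genes in siAGO2 cells and 4.5 ± 0.71 genes in mock cells (SD, n = 2 each), a difference of 0.5 that was smaller than the SD of either group (exact permutation test, two-sided, p = 1.0). In peaks, the siAGO2 libraries had 7 and 10 (8.5 ± 2.1, SD) and the mock libraries 7 and 8 (7.5 ± 0.71, SD), a difference of 1.0 (each n = 2, exact permutation test, two-sided, p = 1.0). The groups overlapped in both measures. The exact permutation test cannot give a p under 0.33 with 2 libraries against 2. Both differences changed sign without siAGO2 replicate 2, to -0.5 genes and -0.5 peaks. With every list reduced to its 1707 highest peaks the difference was -0.5 genes and 0.5 peaks. With peaks above the median −log10 q of each list, which keeps more peaks of the longer mock lists, it was -2 genes and -2 peaks.

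Longer genes had a peak more often. Of the 1020 protein-coding genes of 20000 bp or longer, 27.1% had a peak in all 4 libraries, against 5.66% of the 11635 protein-coding genes under 8000 bp. *bin3* (26035 bp) and *fs(1)h* (23629 bp) belong to the long genes and carried 20 of the 32 peaks between them, 7 at *bin3* and 13 at *fs(1)h*. *snRNA:7SK*, at 444 bp the shortest of the 10, carried 4.

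**Figure D1:**
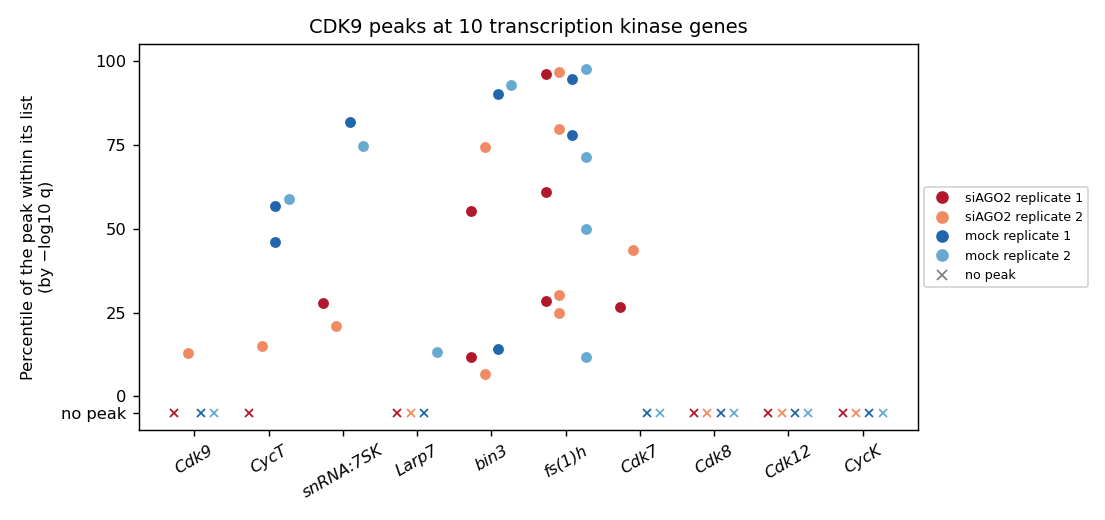
Percentile of each CDK9 peak within its own list, by −log10 q (y axis, 0 to 100), for the 10 genes (x axis). Each point is 1 peak, coloured by library with siAGO2 left of mock, and a cross marks a library without a peak. *fs(1)h* reached between 94.5 and 97.5 in every library, while 3 genes had crosses only.

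The highest CDK9 peak of the group lay at the start of *fs(1)h* (X, 8037808 to 8061436, minus strand), the gene of the fly BET protein. Fold enrichment, the reads at the summit over the local background with 1 added to each, was 15.2 and 15.3 in siAGO2 replicates 1 and 2, against 9.10 and 15.7 in mock replicates 1 and 2. At the summit there were 37 and 37 reads over a background of 1.51 and 1.49 in siAGO2 cells, and 42 and 52 reads over 3.72 and 2.37 in mock cells. The groups overlapped in fold, since mock replicate 2 was highest and mock replicate 1 lowest. Ranked by −log10 q within its list, the peak stood at percentile 96.2 and 96.8 in siAGO2 cells and 94.5 and 97.5 in mock cells. By mean percentile it ranked 77th of the 1022 regions called in all 4 libraries.

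*fs(1)h* has 5 annotated starts, and the merged region (X, 8060590 to 8061470) covered the first of them, at 8061436, and another at 8060974. All 4 summits fell between these, in an intron. They lay 385 and 300 bp downstream of the first start in siAGO2 replicates 1 and 2 and 367 and 352 bp downstream in mock replicates 1 and 2, which is 77, 162, 95 and 110 bp upstream of the inner start. The start of *mys*, the integrin beta subunit gene that is read the other way, was 594, 509, 576 and 561 bp from these summits in the same order. An *fs(1)h* start was thus the nearest in every library.

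Part of the intron with all 4 summits and, for comparison, the intron sequence before the start at 8058358, which holds 3 of the 4 summits of a lower region, are shown on the strand of the gene (RefSeq, Release 6, the assembly of dm6). Capitals mark GAGAG on either strand, the core of the sequence bound by GAGA factor.
fs(1)h start region, chrX:8060975-8061263: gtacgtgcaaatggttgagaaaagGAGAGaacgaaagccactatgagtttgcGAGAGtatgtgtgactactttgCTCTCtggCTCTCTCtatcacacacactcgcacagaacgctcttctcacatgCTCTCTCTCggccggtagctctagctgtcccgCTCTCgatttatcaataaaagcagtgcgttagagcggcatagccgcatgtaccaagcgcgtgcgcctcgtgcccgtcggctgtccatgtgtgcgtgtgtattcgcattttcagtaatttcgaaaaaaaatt
fs(1)h inner region, chrX:8058359-8058658: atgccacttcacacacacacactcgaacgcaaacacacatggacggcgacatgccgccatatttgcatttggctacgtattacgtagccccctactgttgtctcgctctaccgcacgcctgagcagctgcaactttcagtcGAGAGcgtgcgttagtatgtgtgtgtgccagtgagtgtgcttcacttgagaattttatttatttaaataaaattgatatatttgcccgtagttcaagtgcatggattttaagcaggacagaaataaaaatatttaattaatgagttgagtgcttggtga
GAGAG occurred 9 times in the start region, overlapping matches counted, and 1 time in the inner region. Of the 23697 sequences of the same length upstream of annotated starts, 30.8% held GAGAG at least once at 289 bp and 31.6% at 300 bp. As many as 9 occurrences were found in 0.979% of those of 289 bp. The windows at *fs(1)h* were chosen for their peaks and the others by position alone, so the shares are a description. Neither window held TATCGATA, the sequence bound by DREF, which 6.27% and 6.39% of start sequences of these lengths held.

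The inner region of *fs(1)h* (X, 8058355 to 8058954) was also called in all 4 libraries, about the start at 8058358. Its highest peak had a fold of 6.76 and 7.79 in siAGO2 replicates 1 and 2, against 5.29 and 5.86 in mock replicates 1 and 2. Both siAGO2 folds were thus above both mock folds, an order whose share over all regions was not computed. Percentiles overlapped, with 61.0 and 79.7 in siAGO2 cells and 77.9 and 71.3 in mock cells. The reads at the summit were 12 and 16 over a background of 0.922 and 1.18 in siAGO2 cells and 24 and 20 over 3.72 and 2.58 in mock cells. In siAGO2 replicate 1 the region was split into 2 peaks. The summits were less fixed here than at the first starts, at 102 and 335 bp upstream of the start in siAGO2 cells and 280 and 169 bp upstream in mock cells.

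Further peaks inside *fs(1)h* were low and came and went between libraries. A region further inside was called in siAGO2 replicate 2 (fold 4.75) and mock replicate 2 (fold 5.14), with summits 3477 and 3488 bp downstream. A coding exon 7012 bp downstream had a peak in siAGO2 replicate 2 alone (fold 4.42), and an intron site 4615 bp downstream in mock replicate 2 alone (fold 3.88).

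**Figure D2:**
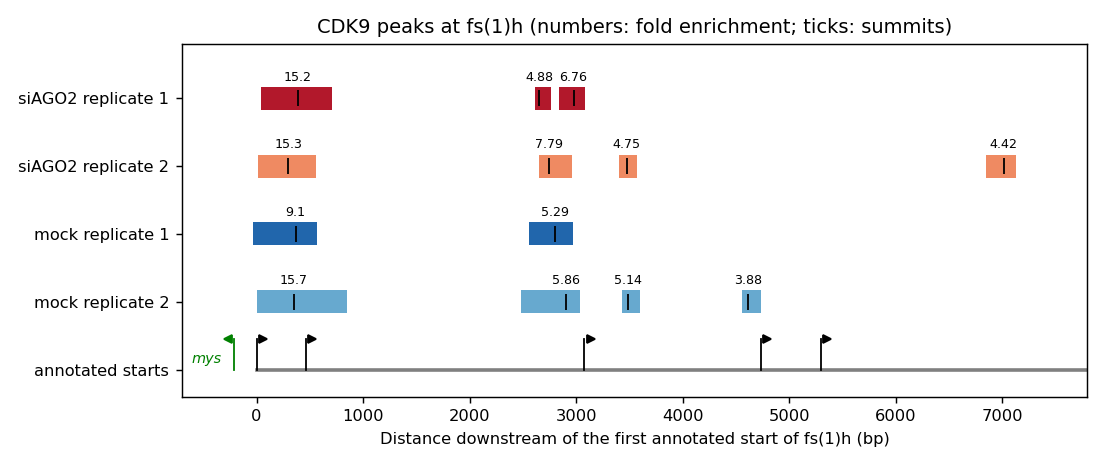
CDK9 peaks at *fs(1)h*, drawn to scale by their distance downstream of the first annotated start (x axis, bp), with 1 row per library and siAGO2 above mock. Bars are peaks, ticks summits and numbers fold enrichment, arrows in the lowest row are annotated starts of *fs(1)h* (black) and *mys* (green), and every library has its highest peak between the first starts.

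The 7SK RNA gene had a CDK9 peak in every library, though a low one in siAGO2 cells. It was left in 3 libraries with every list reduced to its 1707 highest peaks and in 2 with peaks above the median −log10 q. The list of siAGO2 replicate 1 holds only 1707 peaks and was not shortened by the former. The annotation names it *snRNA:7SKa* (3R, 7474553 to 7474996, minus strand), which RefSeq lists with the synonym used here. The peaks (region 7474589 to 7474931) lay inside the gene, with summits 190 and 210 bp downstream of the start in siAGO2 replicates 1 and 2 and 245 and 217 bp downstream in mock replicates 1 and 2. Fold enrichment was 3.78 and 3.80 in siAGO2 cells, against 4.44 and 5.62 in mock cells. There were 17 and 13 reads at the summit over a background of 3.77 and 2.68 in siAGO2 cells, and 35 and 24 reads over 7.11 and 3.45 in mock cells. Its percentile was 27.9 and 21.1 in the siAGO2 lists, against 81.9 and 74.6 in the mock lists. Both siAGO2 libraries were below both mock libraries in fold and in percentile. The share of all regions with such an order was not computed. A percentile depends on the length of the list, and the mock lists are longer, so percentiles of the groups are given as a description. Reads at the summit were lower in siAGO2 cells at both regions of *fs(1)h* too.

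The background at *snRNA:7SK* was high in all 4 libraries. It was 4.63 and 3.11 times that of the genome in siAGO2 replicates 1 and 2 and 3.10 and 2.84 times in mock replicates 1 and 2, where the median peak of each list had 2.47, 2.24, 2.07 and 2.31 times in the same order. It was highest in siAGO2 replicate 1, and its part in the lower siAGO2 percentiles was not tested. A second gene, *snRNA:7SKb* (3R, 23432869 to 23433272), had no peak in any list. Reads of 50 bases can be told apart between them, since none of the 395 stretches of that length in *snRNA:7SKa* recurred in *snRNA:7SKb* or elsewhere on the 7 chromosomes, and the longest run that both share was 8 bases.

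The part of the 7SK gene that all 4 peaks cover is shown on the strand of the RNA, with capitals from the lowest to the highest summit (RefSeq, Release 6).
snRNA:7SK peak core, chr3R:7474654-7474847: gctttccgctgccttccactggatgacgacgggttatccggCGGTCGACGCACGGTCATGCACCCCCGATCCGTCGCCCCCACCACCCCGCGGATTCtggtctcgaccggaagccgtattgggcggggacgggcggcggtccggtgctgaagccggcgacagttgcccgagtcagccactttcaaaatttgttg
This stretch of 194 bp lies within the transcribed RNA and held neither GAGAG nor TATCGATA, which 23.7% and 5.11% of sequences of that length before a start held.

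*bin3* (2R, 6214568 to 6240602, plus strand), the gene of the enzyme that caps 7SK, had 1 region called in all 4 libraries, far from its starts. This region (6235189 to 6236278) spanned a coding exon, and its highest summits lay 21090 and 21460 bp downstream of the first start in siAGO2 replicates 1 and 2 and 21385 and 21400 bp downstream in mock replicates 1 and 2. The nearest of its 3 starts was 6142, 6512, 6437 and 6452 bp away in that order. The start of the gene *Pld* was 6346, 5976, 6051 and 6036 bp away in the same order. It was thus closer than any *bin3* start in every library except siAGO2 replicate 1. Fold enrichment was 4.55 and 5.95 in siAGO2 cells, against 5.33 and 9.01 in mock cells, and the groups overlapped. Reads at the summit were 21 and 20 in siAGO2 cells and 44 and 41 in mock cells, over backgrounds of 3.84 and 2.53 against 7.45 and 3.66. Percentiles were 55.1 and 74.3 in the siAGO2 lists and 90.0 and 92.7 in the longer mock lists.

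As at the 7SK gene, the background under this *bin3* peak was above that of a median peak, at 4.72 and 2.93 times the genome background in siAGO2 replicates 1 and 2 and 3.25 and 3.02 times in mock replicates 1 and 2. The part of this background in the ranks was not tested. The only peak at a start of *bin3* was in siAGO2 replicate 1, 34 bp downstream of the inner start at 6221040 (fold 4.41, 7 reads, percentile 11.8). With windows around starts alone, *bin3* had a peak in 1 library instead of 4.

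**Figure D3:**
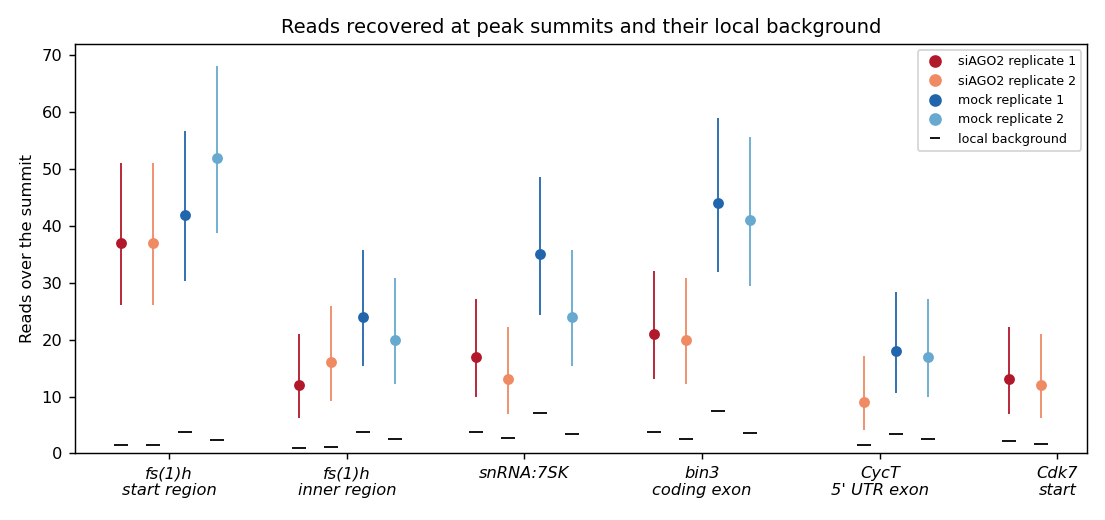
Reads over the summit of the highest peak (y axis, from 0) in each library, for 6 regions at *fs(1)h*, *snRNA:7SK*, *bin3*, *CycT* and *Cdk7* (x axis), with siAGO2 left of mock. Points are recovered reads with exact 95% Poisson intervals, which cover counting error only, and black dashes are the local background. At *snRNA:7SK* the siAGO2 libraries had 17 and 13 reads and the mock libraries 35 and 24.

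The order of the 4 regions called in every library was then tested among all 1022 such regions. For each library the regions were ranked by −log10 q and the ranks turned into normal scores, where 0 is the middle of the regions. *snRNA:7SK* scored -1.09 and -1.54 in siAGO2 cells and -0.01 and -0.67 in mock cells, a difference of -0.97 ± 0.42 (SE). *bin3* scored -0.40 and -0.07 in siAGO2 cells and 0.53 and 0.61 in mock cells, a difference of -0.80 ± 0.36 (SE). In both, the siAGO2 libraries stood below the mock libraries without overlap. The share of all 1022 regions with such an order was not computed, so the order is a description. With 2 libraries against 2, an exact permutation test cannot give a p under 0.33 for it.

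The regions of *fs(1)h* differed in the other direction. The start region scored 1.52 and 1.45 in siAGO2 cells and 0.97 and 1.33 in mock cells, a difference of 0.34 ± 0.37 (SE). Its groups did not overlap either, which is again a description. The inner region scored -0.24 and 0.18 in siAGO2 cells and -0.21 and -0.81 in mock cells, a difference of 0.48 ± 0.41 (SE), and here the groups overlapped. None of these differences passed adjustment (limma, adjusted p = 0.803 for *snRNA:7SK*, 0.804 for *bin3* and 0.910 for both regions of *fs(1)h*). Unadjusted p-values from limma were 0.0558 for *snRNA:7SK*, 0.0673 for *bin3*, 0.386 for the *fs(1)h* start and 0.280 for the inner region. Of the 1022 regions 0% passed an adjusted p of 0.05, and 66 had an unadjusted p under 0.05.

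**Figure D4:**
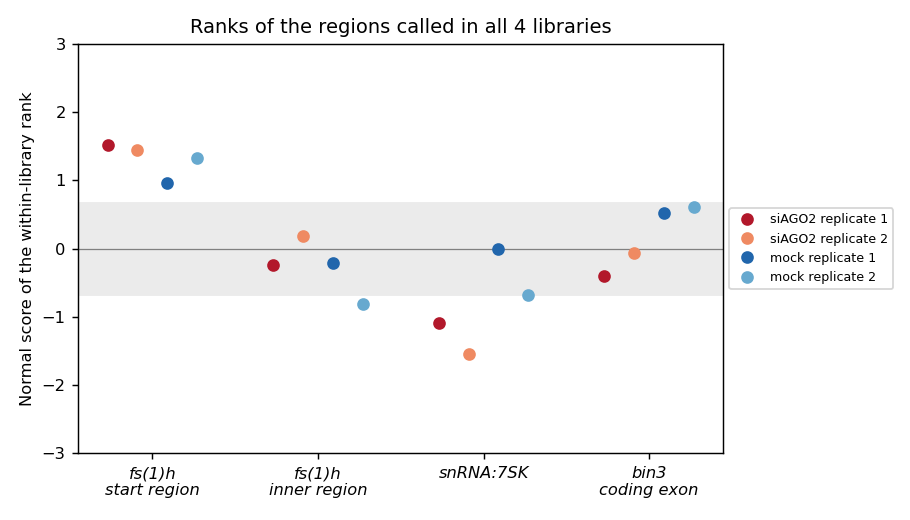
Normal scores of the within-library ranks (y axis) of the 4 regions at *fs(1)h*, *snRNA:7SK* and *bin3* that were called in all 4 libraries (x axis). Each point is 1 library, siAGO2 left of mock, and the grey band spans the scores between the lower and upper quartile of all regions. The siAGO2 points lie below the mock points at *snRNA:7SK* and *bin3* and above them at the *fs(1)h* start. The share of all regions with such an order was not computed.

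*CycT* (3L, 17551004 to 17557788, minus strand) encodes the cyclin of P-TEFb. An exon of its 5′ UTR had a peak in siAGO2 replicate 2 and in both mock libraries. The summit lay 341 bp downstream of the first start in siAGO2 replicate 2, and 341 and 474 bp downstream in mock replicates 1 and 2. The fold was 4.16 in siAGO2 replicate 2, against 4.24 and 5.02 in mock replicates 1 and 2. There were 9 reads over a background of 1.40 in siAGO2 replicate 2, and 18 over 3.48 and 17 over 2.58 in mock cells. Its percentile was 15.1 in the list of siAGO2 replicate 2, against 56.6 and 58.8 in the longer mock lists. The peak was close to the lower end of the list in the siAGO2 library that had it. Mock replicate 1 also had a peak in a coding exon 4728 bp downstream of the first start (fold 4.17, percentile 46.0).

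*Cdk9* itself (2R, 22636063 to 22637727, minus strand) had 1 peak, in siAGO2 replicate 2. Its 8 reads lay over a background of 1.15 (fold 4.19, percentile 12.9), in a coding exon 1318 bp downstream of the start. The start of the next gene, *CG17807*, was closer to that summit, at 467 bp. No list had a peak at the start of *Cdk9*, which lies 43 bp from that of *bonsai*.

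*Larp7* (X, 9243817 to 9245925, plus strand), the gene of the protein that stabilizes 7SK, had 1 peak, in mock replicate 2. The summit lay 85 bp downstream of the start, with 11 reads over a background of 2.25 (fold 3.70, percentile 13.3). The start of *mxc*, read the other way, was 435 bp from it. Both single peaks ranked among the lowest of their lists, and neither was left when every list was reduced to its 1707 highest peaks.

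*Cdk7* (X, 5307465 to 5308983, minus strand) encodes the kinase of TFIIH, which phosphorylates serine residues of the Pol II tail at initiation. Each siAGO2 library had a peak at its start, and the mock libraries had none. The summit was 75 and 84 bp downstream of the start in siAGO2 replicates 1 and 2, in the 5′ UTR, and 334 and 343 bp from the start of *snf*, which is read the other way. The fold was 4.30 and 4.93, with 13 and 12 reads over a background of 2.26 and 1.64, and the percentile was 26.7 and 43.6. Both peaks also lay within 1500 bp of the *snf* start and so counted for *snf* too. The pattern of peaks in siAGO2 cells alone in both replicates was found at 20 of all genes (0.109%), where genes that share a peak are each counted. Its reverse, peaks in mock cells alone in both replicates, was found at 2.74% of all genes and at 0 of the 10.

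Folds of lists of unequal depth are not on 1 scale. The median fold was 5.24 and 4.98 in siAGO2 replicates 1 and 2, against 3.75 and 4.70 in mock replicates 1 and 2. The *Cdk7* fold of siAGO2 replicate 1 was above that of 67.4% of the peaks in mock replicate 1 and 39.6% in mock replicate 2. For siAGO2 replicate 2 the shares were 78.4% and 56.4%. These shares are a description and do not show whether such a peak could have been called in mock cells. The *Cdk7* peak of siAGO2 replicate 2 was still called with every list reduced to its 1707 highest peaks. The list of siAGO2 replicate 1 holds only 1707 peaks, so its *Cdk7* peak could not be lost in this way. Both peaks ranked under the median of their own list. The presence of the *Cdk7* peak was not tested between the groups.

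The 258 bp between the starts of *Cdk7* and *snf* are shown on the strand of *Cdk7* (RefSeq, Release 6), with TATCGATA, the sequence bound by DREF, in capitals.
Cdk7 upstream, chrX:5308984-5309241: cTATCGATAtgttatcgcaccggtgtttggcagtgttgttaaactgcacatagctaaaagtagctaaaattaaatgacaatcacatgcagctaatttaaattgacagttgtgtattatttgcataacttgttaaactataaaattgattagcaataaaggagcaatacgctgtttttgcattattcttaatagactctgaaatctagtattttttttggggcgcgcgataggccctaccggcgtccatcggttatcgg
TATCGATA occurred 1 time, 250 bp upstream of the *Cdk7* start and 2 bp upstream of the *snf* start, and 5.94% of sequences of this length before a start held it. The *Cdk7* peaks ended at 5309037 and 5308993 in siAGO2 replicates 1 and 2. The motif, at 5309233 to 5309240, thus lay outside both. GAGAG did not occur, and 28.7% held it.

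The other kinase genes had no CDK9 peak. They are *Cdk8* (3L, 9837080 to 9838670), the kinase of the Mediator complex, and *Cdk12* (3L, 21516306 to 21522684) with *CycK* (2L, 22124285 to 22130142), whose products form a kinase of elongating Pol II. All are under 8000 bp long, a class in which 29.7% of protein-coding genes had a peak in 1 library or more.

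Over the 32 peaks, 23 summits lay within 500 bp of a start of the same gene and 24 within 1500 bp. The rule itself asks for a place in the gene or near its starts. The 32 peaks merged into 13 regions, and 13 of the peaks lay at *fs(1)h*, which has 5 starts. Shares over all peaks were not computed for the places of summits, so these counts are a description. For 28 an own start was the nearest of any gene, and the exceptions were at *bin3* and *Cdk9*. Summits fell in introns for 12 peaks, in coding exons for 10, in 5′ UTR exons for 6 and in the 7SK exon for 4. Around the summits (100 bp to each side), GAGAG was found in 3 of 7 and 5 of 10 peaks in siAGO2 replicates 1 and 2, where 56.3% and 48.4% of all peaks held it. In mock replicates 1 and 2 it was found in 4 of 7 and 6 of 8, where 40.0% and 43.1% of all peaks held it. These were peaks of *fs(1)h* and *bin3* in every library, and of *CycT* in the mock libraries. None of the 32 held TATCGATA there, which 4.34% and 3.83% of siAGO2 peaks and 2.35% and 3.44% of mock peaks held.

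Peaks at genes that work with these kinases were counted in 9 lists with 53 genes. A peak was present at 14 and 13 of the 53 in siAGO2 replicates 1 and 2, where 10.8% and 14.9% of all genes had one. It was present at 17 and 21 of the 53 in mock replicates 1 and 2, where 18.6% and 23.0% of all genes had one. All 4 libraries had one at 7 of the 53 genes, a call that 7.53% of all genes received. In 1 library or more, 29 of the 53 had one, a call that 30.1% of all genes received. As a share of the 53, each of these counts was above the share over all genes. The lists were chosen by name, so this is a description. *Hexim*, the inhibitor of P-TEFb, had none. Peaks in all 4 libraries were found at 1 of 4 genes of the super elongation complex, 0 of 6 of NELF and DSIF, 0 of 9 of TFIIH, 1 of 3 of the Mediator kinase module, 1 of 4 other kinases and phosphatases of the Pol II tail, 2 of 6 other CDKs, 1 of 8 other cyclins and 1 of 12 Pol II subunits. The gene among them with the highest mean percentile was *skd* (3L, 20992814 to 21027434), which encodes a partner of Cdk8 in Mediator. Its highest fold was 11.0 and 11.3 in siAGO2 cells and 8.10 and 14.4 in mock cells, while *Cdk8* had no peak. *Su(Tpl)*, the fly ELL gene (3L, 19889120 to 19909410), was the gene of the super elongation complex with a peak in all 4 libraries, with folds of 5.32 and 6.95 in siAGO2 cells and 6.14 and 5.13 in mock cells. In both genes the groups overlapped.

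To place the *fs(1)h* start among other sites, the regions called in all 4 libraries were ordered by the distance of their log2 fold enrichments from it over the 4 libraries. The closest regions were those of *c12.2* (X, 9318997 to 9319738), *fng* (3L, 20949029 to 20950157) and *Trl* (3L, 14754848 to 14755880). Each is named by the gene of the nearest start, which was 8, 81 and 1972 bp from the midpoint of the region. In that order the regions lay at distances in log2 fold of 0.05, 0.25 and 0.26. Their folds were 15.4, 14.0 and 14.4 in siAGO2 replicate 1, 15.5, 13.6 and 13.0 in siAGO2 replicate 2, 9.33, 9.71 and 9.35 in mock replicate 1 and 15.9, 16.8 and 16.6 in mock replicate 2. The regions were picked for this likeness, so their shared order is no further result.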

How the data were processed

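ChIP-seq peak lists of 4 CDK9 libraries (2 siAGO2, 2 mock) were used, and the 4 inputs enter through the peak caller. The authors trimmed 50-base reads with cutadapt, aligned them to dm6 with bowtie2, dropped reads of low mapping quality and duplicates, and ran MACS2 2.1.1.20160309 on each replicate. The submitters' processing notes give cutadapt 1.10 and Picard 2.11.0. MACS2 settings for CDK9 are not given in the sources used here. The deposited columns hold the fold enrichment (a ratio of summit to local background), −log10 p, −log10 q, and a score, which in the deposited lists is 10 times the −log10 q without its decimals. Positions in the lists count from 0 and are given here from 1.

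Reads and background at each summit were solved from the deposited fold and −log10 p under a Poisson model with a pseudocount of 1, which gave a whole number of reads within 0.0005 for 100% of peaks. Genes came from Ensembl release 115 without transposable elements (24111 starts), and sequences from the RefSeq genome of the same assembly. Group counts were compared with exact permutation tests. Ranks were compared with limma 3.58.1 and Benjamini-Hochberg adjustment over all regions called in all 4 libraries. The scripts were tested on simulated data. All 10 genes are named, other genes by mean percentile within fixed lists, and the members and lists were chosen with earlier results of these data known. Alternatives varied the window, the peaks kept, the score, the overlap and the libraries.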

Additional observations from a re-analysis of the deposited data

How the results depend on the processing

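Counts of genes and peaks gave no stable direction. With every list reduced to its 1707 highest peaks, the difference in genes with a peak was -0.5, and with peaks above the median −log10 q it was -2 genes and -2 peaks. Leaving out each library gave between -0.5 (without siAGO2 replicate 2) and 1.5 genes (without siAGO2 replicate 1), 0 genes without mock replicate 1, and between -0.5 and 2.5 peaks without the same siAGO2 libraries. The second 7SK gene was added after seeing the data and changed neither count. Same-numbered libraries did not deviate together in their rank scores (r = 0.00101 over 1022 regions). Ranks remove shifts shared by a whole library, so this cannot show whether such libraries were prepared together. The labels do not say, and the main tests were unpaired. Under the replicate block the differences were 0.5 genes and 1.0 peaks (exact sign-flip permutation, p = 1.0), and a balanced block cannot change them. The libraries numbered 1 had equal counts in both groups (4 genes and 7 peaks), so every sign flip gave a difference of the same size. This test decides nothing here, and its smallest possible p is 0.5. With the block limma called 2 regions against 0, neither of them at these genes. In all 34 alternative fits of the 4 regions the sign was that reported. The replicate block cannot change these estimates, since the groups are balanced. Where the groups do not overlap, leaving out a library can hardly change the sign either, so the shared sign is no further support. With all 4 libraries kept, adjusted p (limma) lay between 0.684 and 0.984. Fits that leave out a library rest on 1 library in a group, assumed to vary like the others. The overlap of 50% gave no value for *bin3* or the inner *fs(1)h* region. Depth limits every call that a gene has no peak.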
